A study of Homo sapiens with 9 samples.

Results

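Midkine (MDK) and pleiotrophin (PTN) were followed together with 6 of their receptors, PTPRZ1, ALK, LRP1 and the syndecans SDC1, SDC3 and SDC4, in A2780 cells, an established line of human ovarian carcinoma. The 8 genes were chosen because they are the ligands and receptors of one signaling system and because MDK, whose promoter the study examined by chromatin immunoprecipitation, fell at 80 nM DIG-MSK. They were found on the array by the RefSeq transcript that each probe was designed for, which gave 10 probes, and they are 8 of the 35010 genes, transcripts and intergenic RNAs that the array lists. The fall of MDK was therefore used in choosing the genes, and all changes at 80 nM are given as a description, with no test, for these 8 genes.

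Cultures of A2780 cells were left untreated or grown for 24 h with DIG-MSK at 8 nM or at 80 nM, and 3 biological replicates of each were hybridized to 9 arrays labeled with a single dye, Cy3. DIG-MSK is an analogue of the antibiotic mithramycin A, a compound that prefers C/G-rich DNA, which it contacts in the minor groove. All groups shared the same cell line, medium and time of culture, the untreated cultures were not stated to have received a vehicle, and a single cancer line stands for ovarian carcinoma here. Slide 1 carried both the untreated and the 8 nM arrays, in 1 scan, and slide 2 carried all of the 80 nM arrays, in a separate scan. Slide and concentration therefore cannot be told apart in any comparison with 80 nM.

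A level is the log2 of the background-corrected intensity of a probe relative to the 75th percentile of its array, which lay between 832 and 1170 intensity units. Precision is limited by having 3 arrays per group. Probes were kept if they were well above background, by the flag of the scanner software, on all 3 arrays of at least 1 group, and between 24835 and 27127 probes were so on a single array. The rule of the study was kept for calling a gene: an unadjusted limma p under 0.05 together with a fold change of at least 1.5 (up-regulated) or at most 0.67 (down-regulated). By that rule 7.09% of the 21814 genes tested were called at 8 nM and 35.1% at 80 nM. Taken over all genes, the median log2 change was -0.06 for 8 nM and 0.08 for 80 nM. Of 6 epithelial markers, KRT7, KRT8, KRT18, KRT19 and EPCAM were measured and for CDH1 no array was well above background, while none of 5 markers of ovarian surface and Müllerian epithelium (PAX8, WT1, MUC16, EMX2 and LHX9) passed the filter. Of 3 mesenchymal markers, VIM had a level of 7.56 ± 0.12 (SD, n = 3) in untreated cells and CDH2 one of 0.19 ± 0.17. For the other, FN1, no array was well above background.

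MDK and PTN are the only members of a small family of secreted, heparin-binding growth factors. They bind the sulfated sugar chains carried by cell-surface proteoglycans such as the syndecans, and act through the receptor tyrosine phosphatase PTPRZ1, the receptor tyrosine kinase ALK and the endocytic receptor LRP1. Midkine is abundant in the embryo, low in most adult tissues and raised in many carcinomas. Sp1, the transcription factor whose occupancy the study measured at the MDK promoter, recognizes the GC box.

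Because the compound prefers C/G-rich DNA, the promoter windows of RefSeq (assembly GRCh38.p14) were searched for the GC box GGGCGG on both strands, that is, also for CCGCCC. The windows hold 250 bases before each transcription start, and they matched 7 of the 8 genes, all but MDK, in 9 windows. Of all 35116 windows of that length, 42.6% held at least 1 GC box, 7.63% held 4 or more and 0.584% held 8 or more, and their median G+C content was 58%. The window of SDC4 held 8 boxes at a G+C content of 73.6%, that of SDC3 held 5 at 83.6%, and that of PTN held none at 50.4%. SDC1 had 1 box in each of its 2 windows, PTPRZ1 had 2, LRP1 had 1, and ALK had 4 in one window and none in the other. A match is a description of these letters and not a measured binding site. The windows of PTN, SDC1 and SDC4 are shown because they hold none, 1 and 8 of the boxes and belong to genes that were lower, little changed and higher at 80 nM. These windows were picked on both grounds, so no relation between boxes and change can be read from them, and none was tested. They are printed in the direction of the gene, 5′ to 3′, with GC boxes in capitals. They lie on the minus strand at chr7:137343734-137343983 (PTN), chr2:20225476-20225725 (SDC1) and chr20:45348425-45348674 (SDC4).
PTN: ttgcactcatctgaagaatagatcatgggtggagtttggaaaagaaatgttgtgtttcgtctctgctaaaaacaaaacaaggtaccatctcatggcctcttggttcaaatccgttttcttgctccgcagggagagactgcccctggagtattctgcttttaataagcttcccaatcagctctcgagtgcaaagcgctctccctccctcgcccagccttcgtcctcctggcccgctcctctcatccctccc
SDC1: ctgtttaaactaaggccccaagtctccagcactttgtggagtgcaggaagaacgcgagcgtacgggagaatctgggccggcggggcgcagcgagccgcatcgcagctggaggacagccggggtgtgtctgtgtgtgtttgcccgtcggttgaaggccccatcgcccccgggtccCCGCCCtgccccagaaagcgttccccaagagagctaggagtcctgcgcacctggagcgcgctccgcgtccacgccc
SDC4: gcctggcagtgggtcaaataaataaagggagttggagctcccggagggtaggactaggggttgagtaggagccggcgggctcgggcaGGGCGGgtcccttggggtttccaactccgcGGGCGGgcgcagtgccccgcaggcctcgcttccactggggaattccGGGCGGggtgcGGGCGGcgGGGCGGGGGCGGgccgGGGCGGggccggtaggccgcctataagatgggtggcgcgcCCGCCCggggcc

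MDK (NM_001012334) was strongly expressed in untreated cells and at 8 nM, and it was 23.3-fold lower at 80 nM. On the 3 untreated arrays its level was 2.16, 1.82 and 1.88, at 8 nM it was 2.33, 1.82 and 1.96, and at 80 nM it was -2.59, -2.51 and -2.66. All 80 nM arrays lay far below all others, and the untreated and 8 nM arrays overlapped. In intensity units before scaling, MDK gave 3710 to 3880 on the untreated arrays, 2940 to 5760 at 8 nM and 145 to 165 at 80 nM, and the signal was well above background on each of the 9 arrays. The log2 change at 80 nM was -4.54 (standard error 0.14), given as a description. Of the 21814 genes, 126 fell by that much or more, MDK included, which is 0.578%. At 8 nM the change was 0.08 (standard error 0.14, interval -0.25 to 0.41, limma adjusted p = 0.73). The 80 nM arrays differed from the 8 nM arrays by -4.62. In RNA from whole cultures, fewer cells that express a gene and less RNA per cell cannot be told apart.

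**Figure D1:**
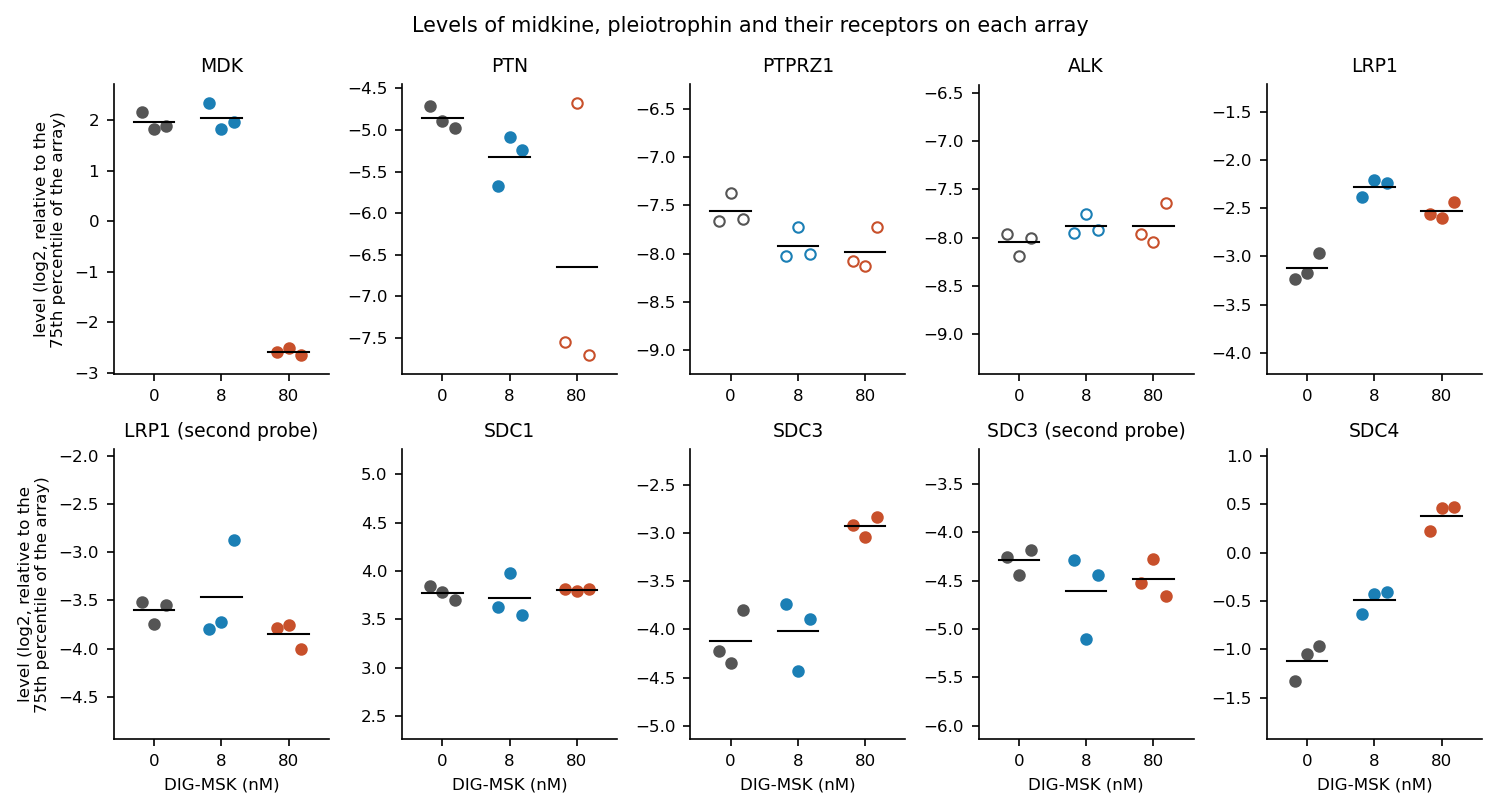
Level of each of the 10 probes (log2, relative to the 75th percentile of the array) on the 9 arrays by DIG-MSK concentration, with 1 point per replicate and a bar at the mean of 3; open points were not well above background, and each panel has its own axis. MDK lies near 2 on the untreated and 8 nM arrays and between -2.66 and -2.51 at 80 nM, while SDC4 rises from between -1.33 and -0.97 to between 0.22 and 0.47.

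PTN (NM_002825), the other ligand, was dim throughout. Its level was -4.71, -4.89 and -4.98 on the untreated arrays, -5.67, -5.08 and -5.24 at 8 nM, and -7.55, -4.68 and -7.71 at 80 nM. The 8 nM arrays all lay below the untreated ones, and the 80 nM arrays fell far apart, with replicates 1 and 3 lowest and replicate 2 above every other array. That replicate rests on 1 of the 2 spots of the probe, which read 141 intensity units where its partner read 8.55, and the 4 spots on the other 80 nM arrays read between 3.66 and 7.63. On no 80 nM array were both spots of the probe well above background, so its level there is a limit rather than a measurement. For the bound, the untreated mean was set against the mean over the 80 nM arrays of either the probe's own level or the lowest level well above background on that array, whichever was higher. On these group means PTN was lower at 80 nM by a bound of 1.5-fold, or of 1.95-fold when replicate 2 was left out. The bound holds for this scale only, since replicate 2 itself was not lower, and the fitted change was -0.16 with normexp correction and -0.38 with the log2 table of the authors. The fit to the levels as measured, those below background included, gave -1.79 for 80 nM on the log2 scale (standard error 0.70), or -2.77 without that replicate. At 8 nM the change was -0.47 (standard error 0.70, interval -2.07 to 1.14, limma adjusted p = 0.67), and the wide error comes from the spread of the 80 nM arrays, which all groups share in the fit. Fitted with the untreated and 8 nM arrays alone, the adjusted p was 0.15. Groups that did not overlap, with the 8 nM arrays lower, were found in 18.4% of all genes.

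The receptors that signal for these ligands in other tissues gave little or no signal. PTPRZ1 (NM_002851), the phosphatase that pleiotrophin inactivates, had levels between -8.13 and -7.37, or between 3.19 and 6.61 intensity units, over the 9 arrays. ALK (NM_004304), the receptor tyrosine kinase, had levels between -8.19 and -7.64, or between 3.34 and 4.82 intensity units. Neither was well above background on any of the 9 arrays, so neither was tested and no change can be given. The lowest level that counted as well above background was between -6.18 and -5.68 on these arrays. Of the 8 genes, 6 were therefore measured.

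LRP1 (NM_002332), an endocytic receptor that also takes up proteases and lipoproteins, was higher at both concentrations by one of its probes. That probe is printed as 10 spots on each array, of which 6 in all were left out as outliers, and the SD between spots of one array was only 0.05 to 0.11. Its level was -3.23, -3.17 and -2.96 on the untreated arrays, -2.38, -2.21 and -2.24 at 8 nM, and -2.56, -2.60 and -2.44 at 80 nM. The groups did not overlap, and the order was untreated, 80 nM and then 8 nM. LRP1 rose at 8 nM by 0.84 on the log2 scale, or 1.79-fold (standard error 0.09, interval 0.63 to 1.06, limma adjusted p = 0.0012). At 80 nM it lay 0.59 above untreated (standard error 0.09), and the difference from 8 nM was -0.25.
The second probe of LRP1, printed once, read otherwise. It gave -3.52, -3.74 and -3.55 on the untreated arrays, -3.80, -3.72 and -2.87 at 8 nM, and -3.79, -3.75 and -4.00 at 80 nM. This probe differed from untreated by 0.14 at 8 nM (limma adjusted p = 0.71, standard error 0.23) and by -0.25 at 80 nM, so the rise was seen with one of the 2 probes. With the mean of both probes, the change of LRP1 was 0.49 at 8 nM (adjusted p = 0.043), under the 1.5-fold limit, and 0.17 at 80 nM.

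The syndecans are transmembrane proteoglycans whose heparan sulfate chains hold midkine and pleiotrophin at the cell surface, and the 3 that were followed behaved differently. SDC4 (NM_002999), which is found at focal adhesions, rose stepwise with the concentration. Its level was -1.33, -1.05 and -0.97 on the untreated arrays, -0.64, -0.43 and -0.41 at 8 nM, and 0.22, 0.46 and 0.47 at 80 nM. No group overlapped another. SDC4 rose at 8 nM by 0.63, or 1.54-fold (standard error 0.12, interval 0.35 to 0.90, limma adjusted p = 0.013), just past the 1.5-fold limit. Without untreated replicate 1 that rise was 0.52, which is under the limit, with an adjusted p of 0.035. At 80 nM it was 1.51 above untreated, or 2.84-fold (standard error 0.12), and 0.88 above 8 nM.

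SDC1 (NM_001006946), the main syndecan of epithelial cells, was bright and steady. Its level was 3.84, 3.78 and 3.70 on the untreated arrays, 3.63, 3.98 and 3.54 at 8 nM, and 3.81, 3.79 and 3.81 at 80 nM, and all groups overlapped. The change was -0.06 at 8 nM (standard error 0.11, interval -0.32 to 0.20, limma adjusted p = 0.75) and 0.03 at 80 nM (standard error 0.11). The 8 nM interval leaves out a 1.5-fold change in either direction.

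SDC3 (NM_014654), best known from the nervous system, was higher at 80 nM by one of its probes. That probe gave -4.22, -4.35 and -3.80 on the untreated arrays, -3.74, -4.43 and -3.89 at 8 nM, and -2.92, -3.04 and -2.84 at 80 nM. The 80 nM arrays lay above all others, and untreated and 8 nM overlapped. On untreated replicate 3 its 2 spots read 105 and 51.1 intensity units. The change was 0.11 at 8 nM (standard error 0.20, limma adjusted p = 0.74) and 1.19 at 80 nM, or 2.28-fold (standard error 0.20).
The second probe of SDC3 gave -4.25, -4.44 and -4.18 on the untreated arrays, -4.29, -5.10 and -4.44 at 8 nM, and -4.52, -4.28 and -4.66 at 80 nM. Its groups overlapped, and its change was -0.32 at 8 nM (adjusted p = 0.32) and -0.20 at 80 nM. The 2 probes of SDC3 therefore disagreed at 80 nM, and with their mean the change there was 0.50.

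**Figure D2:**
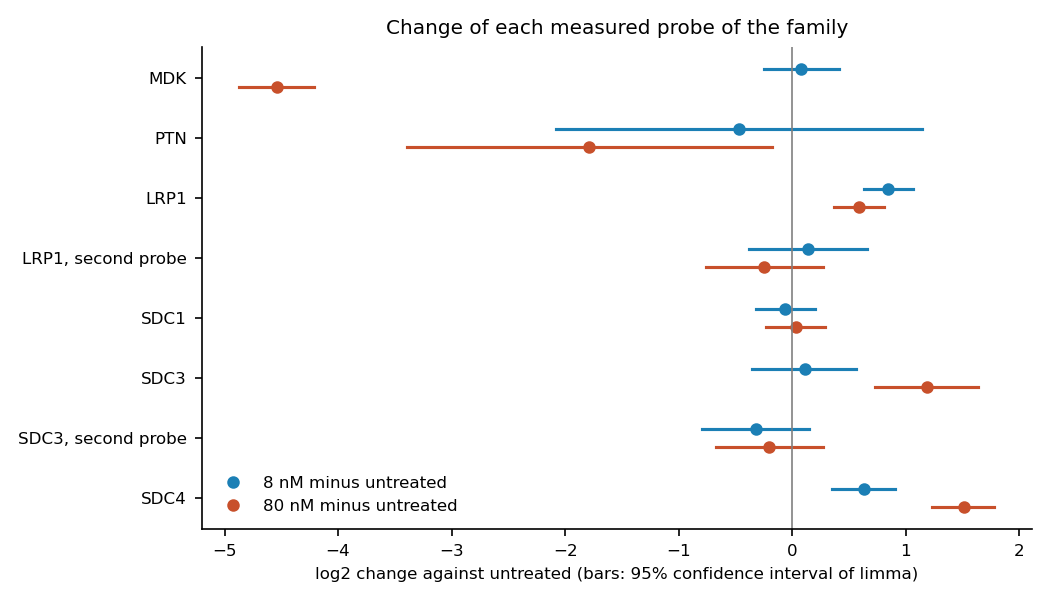
Log2 change against untreated of each of the 8 probes that passed the filter, at 8 nM and at 80 nM, with 95% confidence intervals from limma over 9 arrays. The 80 nM intervals show precision only and are no test, since the fall of MDK there was used to choose the genes. MDK at -4.54 stands apart at 80 nM, and LRP1 (first probe) and SDC4 lie above 0 at both concentrations; the interval of PTN is the widest.

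Of the 6 genes measured, LRP1 and SDC4 were called at 8 nM, both up-regulated, where 7.09% of all genes were called and 4.25% were called up-regulated. Both were also past an adjusted p of 0.05, as were 5.11% of all genes with such a fold change, and the 8 nM arrays of both lay wholly above the untreated ones, which held for 15.8% of all genes. LRP1 and SDC4 were thus the 2 calls among 6 genes at 8 nM, in a comparison that lies within 1 slide. The fall of MDK that was used in choosing the genes is not part of that comparison. The genes were, however, chosen with earlier results of these data known, and the study itself lists LRP1 among genes changed by both concentrations. The 8 nM comparison is therefore not shown to be independent of the choice. Without untreated replicate 1, only LRP1 was called. With scaling to the 10 spike-in probes in place of the 75th percentile, the change of LRP1 was 0.92 with an adjusted p of 0.066 and that of SDC4 was 0.71 with an adjusted p of 0.27.

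At 80 nM the number of genes past the same limits is a description only and no test, since that comparison was used to choose them. It was 5 of the 6, beside 35.1% of all genes, 18.8% up-regulated and 16.3% down-regulated. MDK and PTN lay lower, LRP1, SDC3 and SDC4 lay higher, and SDC1 stayed within the limits. With adjusted p-values the number was 4, without PTN, beside 34.3% of all genes. The 80 nM arrays lay wholly above the untreated ones for 40.3% of all genes and wholly below them for 31.7%, and wholly above or below the 8 nM arrays for 39.3% and 25.5%. The number was 3 when the mean of a gene's probes was used, 3 with a normexp model of the background, 3 with the log2 table of the authors, and 3 without untreated replicate 1, without untreated replicate 2 or without 80 nM replicate 3. With scaling to the spike-in probes, the median over all genes at 80 nM was -0.20 in place of 0.08, and under it MDK changed by -4.82, LRP1 by 0.31, SDC1 by -0.25, SDC3 by 0.91 and SDC4 by 1.23. With the probe used for each gene or the mean of its probes, the signs of MDK, PTN, LRP1, SDC3 and SDC4 at 80 nM were kept under all 21 alternatives run (20 for PTN), and that of SDC1 was not.

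**Figure D3:**
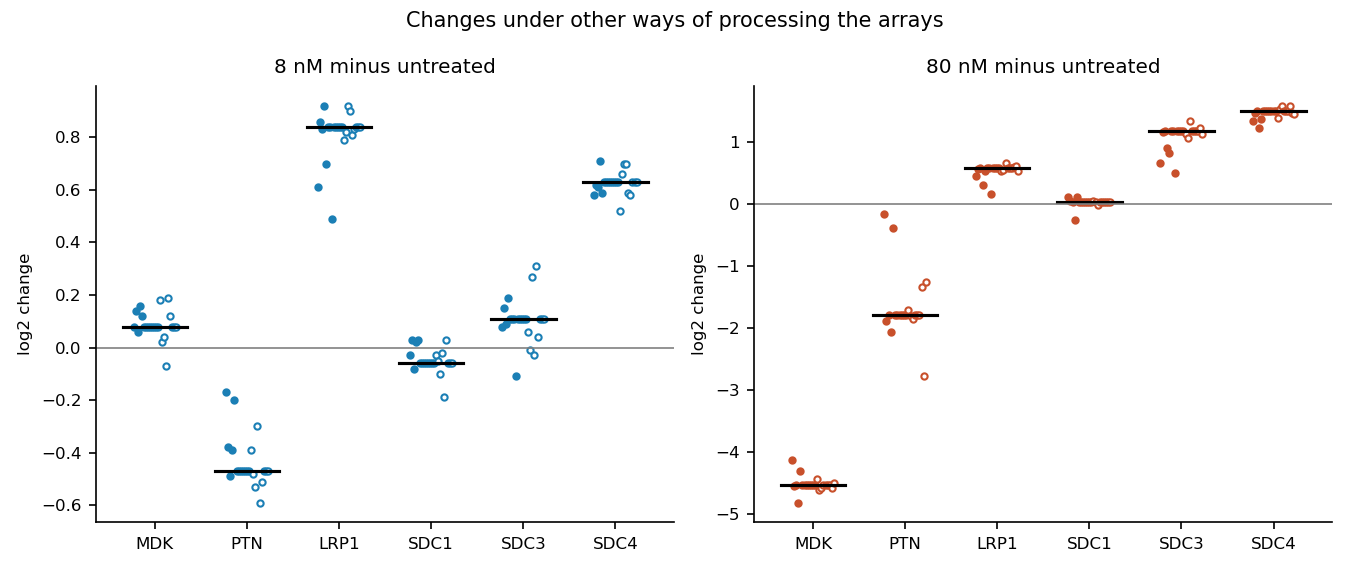
Log2 change of the 6 measured genes at 8 nM (left) and at 80 nM (right) under each alternative way of processing the arrays; filled points are other settings, open points leave out 1 array, and the black bar is the value reported. PTN at 80 nM spans -2.77 to -0.16, MDK -4.82 to -4.14 and SDC4 1.23 to 1.59.

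The genes whose pattern over the 9 arrays came closest to that of MDK were found among 12690 genes with a symbol and well above background on every array. The measure was the root mean square difference after each gene was set relative to its own untreated mean. FBN2, which encodes the microfibril protein fibrillin-2, and HAPLN1, which encodes a link protein of hyaluronan, differed from MDK by 0.26. RAB3IP, an activator of Rab GTPases, and the small nucleolar RNA SNORD116-19 differed by 0.30, and CHODL, a membrane lectin, differed by 0.33. Their log2 changes at 80 nM were -4.29 for FBN2, -4.70 for HAPLN1, -4.70 for RAB3IP, -4.36 for SNORD116-19 and -4.16 for CHODL. At 8 nM they lay between -0.31 and 0.32.

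**Figure D4:**
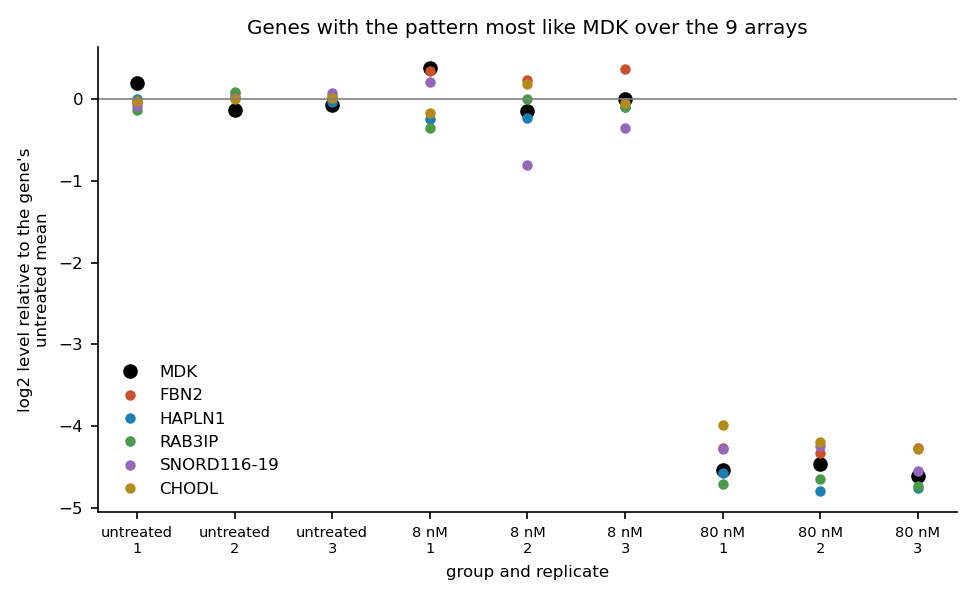
Log2 level of MDK and of the 5 genes most like it on each array, relative to the untreated mean of each gene, with 1 point per gene and array. All 6 genes lie between -4.79 and -3.99 on the 80 nM arrays and between -0.80 and 0.38 on the untreated and 8 nM arrays.

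The study examined the promoters of XIAP, CRABP1 and KCNMA1 beside that of MDK. It took them from genes repressed at 80 nM, so their direction there is not independent evidence, and their changes there are given with no test. CRABP1, a carrier of retinoic acid, had levels of 1.65, 1.27 and 0.90 in untreated cells, 1.89, 1.49 and 1.18 at 8 nM and -5.19, -4.66 and -5.05 at 80 nM. It fell by 6.24 on the log2 scale at 80 nM, while its second probe changed by -2.07. XIAP, an inhibitor of caspases, fell by 0.75 at 80 nM, and its second probe changed by -0.20. At 8 nM XIAP changed by -0.49 (limma adjusted p = 0.0097), short of 1.5-fold. KCNMA1, a calcium-activated potassium channel, fell by 0.76 with 8 nM (adjusted p = 0.0025). At 80 nM, where no array was well above background, it was at least 22.6-fold lower than in untreated cells. Its other probes, as measured, changed by -0.98 and -1.20 at 8 nM and by -5.65 and -3.37 at 80 nM. At 8 nM, MDK and CRABP1 changed by 0.08 and 0.25, and XIAP and KCNMA1 by -0.49 and -0.76. By immunoblot, the study reported that Sp1 and the short isoform of Sp3 fell with time under the compound. The study also lists primers for SP1 and SP3 mRNA, and it reports significant changes for every gene measured by quantitative PCR. It describes the Sp1 and Sp3 protein levels as matching the drug's down-regulation of gene expression. The arrays measured mRNA only, and on them that of SP1 and SP3, whose products bind GC boxes, was near its untreated level. Why the arrays differ from the quantitative PCR of the study was not tested. SP2 changed by 0.35 with 8 nM (limma adjusted p = 0.035) and by 0.08 with 80 nM. SP4 changed by -0.02 with 8 nM and by -0.13 with 80 nM. SP2 and SP4 were named after their values were seen. For SP1 the change was 0.04 with 8 nM (adjusted p = 0.85) and -0.16 with 80 nM (adjusted p = 0.28). For SP3 the values were -0.07 (adjusted p = 0.63) and 0.00 (adjusted p = 1).

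Other genes related to midkine signaling were grouped in 6 lists by their role. Of 98 such genes tested, 6 were called at 8 nM, 5 up-regulated and 1 down-regulated, where 7.09% of all genes were called. At 80 nM, 45 were called, 18 up-regulated and 27 down-regulated. Of all genes, 35.1% were called there, 18.8% up-regulated and 16.3% down-regulated, and the counts of each list below stand beside these shares. The median change of the 98 genes was -0.03 at 8 nM and -0.04 at 80 nM, against -0.06 and 0.08 over all genes. Some genes passed the filter through 1 group alone, and of the 87 genes well above background on all 9 arrays, 15 rose and 20 fell at 80 nM. With that filter over all genes, 3242 rose and 2620 fell, so that falls were 44.7% of the calls.

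Among other ligands and receptors of the system, 13 of 17 were measured, and 1 rose and 4 fell at 80 nM (median 0.11). ITGAV, the integrin αv chain, rose from 3.33, 3.24 and 3.27 in untreated cells to 5.52, 5.45 and 5.48 at 80 nM, a change of 2.20 (limma adjusted p = 6.3e-08). LRP8, a lipoprotein receptor of the LRP1 family, was lower at both concentrations. It fell by 0.68 with 8 nM (adjusted p = 0.0015) and fell by 1.38 with 80 nM (adjusted p = 2.9e-06). PTPRG, the phosphatase closest to PTPRZ1, fell by 0.80 at 80 nM (adjusted p = 0.026). NRP1, a co-receptor reported for midkine, and LRP1B, a relative of LRP1, were not well above background at 80 nM. They were at least 7.48-fold and at least 2.51-fold lower there. No p is given with a bound, since the fit used levels below background, and LRP1B passed the filter through the untreated arrays alone. These 2 genes, like the others given by a bound below, were named after their values were seen.

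Of 11 other heparan sulfate proteoglycans of the cell surface and basement membrane, 10 were measured, none was called at 8 nM, and 4 fell and none rose at 80 nM (median -0.18). GPC3, a glypican anchored to the membrane by a lipid, went from 0.48, 0.70 and 0.68 in untreated cells to -1.98, -2.08 and -2.23 at 80 nM, so that it fell by 2.71 (limma adjusted p = 3.1e-07), and its second probe changed by -5.97. GPC4 fell by 2.37 (adjusted p = 2.6e-06). GPC6, named after its values were seen, changed by -0.36 at 8 nM and -0.12 at 80 nM, but its second probe changed by -0.75 and -1.16. With each probe counted separately, 1 probe of this list was called at 8 nM and 6 at 80 nM, all down-regulated. Among the other ligands and substrates of PTPRZ1, 8 of 12 were measured, none was called at 8 nM, and 1 rose and 3 fell at 80 nM (median -0.15). CTNNB1, which encodes β-catenin, rose by 0.63 (adjusted p = 0.0065), and with scaling to the spike-in probes no gene of this list rose. ARHGAP35, a substrate of PTPRZ1, fell by 1.06 (adjusted p = 3.7e-06). At 8 nM it changed by -0.37 (limma adjusted p = 0.0078), short of 1.5-fold. Its second probe changed by -0.98 at 8 nM and by -1.36 at 80 nM. With the mean of a gene's probes, 1 gene of this list was called at 8 nM, down-regulated. TNC, the matrix protein tenascin-C, was at least 3.20-fold lower at 80 nM.

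The enzymes that build and edit heparan and chondroitin sulfate, the chains to which MDK and PTN bind, changed in both directions. Of 44 listed, 31 were measured, 3 rose and none fell at 8 nM, and 11 rose and 7 fell at 80 nM (median 0.38), or 8 and 10 with scaling to the spike-in probes. SULF2, which removes 6-O-sulfate groups from heparan sulfate at the cell surface, moved in opposite directions. Its level was -1.23, -1.42 and -1.34 in untreated cells, 0.62, 0.88 and 0.64 at 8 nM, and -2.18, -2.24 and -2.16 at 80 nM. SULF2 rose by 2.04 with 8 nM (limma adjusted p = 1.6e-05) and fell by 0.87 with 80 nM (adjusted p = 8.7e-05), and the difference between the concentrations was -2.91 (80 nM minus 8 nM, adjusted p = 1.1e-07). EXTL1, a glycosyltransferase, rose at both concentrations, by 0.99 (adjusted p = 0.00036) and 1.12 (adjusted p = 1.4e-05). DSE, which converts glucuronic to iduronic acid in dermatan sulfate, rose by 0.66 with 8 nM (adjusted p = 0.017) and rose by 0.88 with 80 nM (adjusted p = 0.00083).
GLCE, the epimerase that makes the same conversion in heparan sulfate, rose at 80 nM by 1.55 (adjusted p = 2e-06). HS6ST1, one of the transferases that add 6-O-sulfate, fell by 0.81 at 80 nM (adjusted p = 0.00094). HS6ST2, of the same family, was at least 19.4-fold lower there. NDST4, an N-sulfotransferase, was well above background only on the 80 nM arrays and at least 15.3-fold higher there than in untreated cells. NDST4 passed the filter through those arrays alone, so no p is given for it. HPSE, another of the genes counted as rising at 80 nM, also passed it through those arrays alone. Among genes of this list well above background on all 9 arrays, 9 rose and 4 fell at 80 nM.

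Of 19 cytoplasmic partners and sheddases of the syndecans, 16 were measured, none was called at 8 nM, and 2 rose and 6 fell at 80 nM (median -0.15). SDCBP, which encodes syntenin, a scaffold that binds the syndecan tail, rose from -1.05, -1.18 and -1.22 to 0.59, 0.37 and 0.45, a change of 1.62 (limma adjusted p = 1.1e-05). TIMP3, an inhibitor of the proteases that shed syndecans, fell by 1.84 (adjusted p = 2e-06). TIAM1, a Rac exchange factor, fell by 1.21 (adjusted p = 2e-05). Of 23 adaptors and signaling proteins downstream of ALK and LRP1, 20 were measured, 2 rose and none fell at 8 nM, and 3 rose and 3 fell at 80 nM (median 0.23), or none and 8 with scaling to the spike-in probes.
JAK3, a tyrosine kinase, rose at 8 nM by 0.72 (adjusted p = 0.002), while its second probe changed by 0.18. At 80 nM, SHC1, an adaptor of receptor tyrosine kinases, rose by 0.81 (adjusted p = 2e-05), and the kinase JAK2 rose by 0.77 (adjusted p = 3.3e-05). PIK3CA and PIK3R1, the catalytic and regulatory subunits of a phosphoinositide kinase, fell by 1.13 (adjusted p = 0.00017) and fell by 0.60 (adjusted p = 0.017). SHC3, the neuronal relative of SHC1, was at least 6.62-fold lower.

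**Figure D5:**
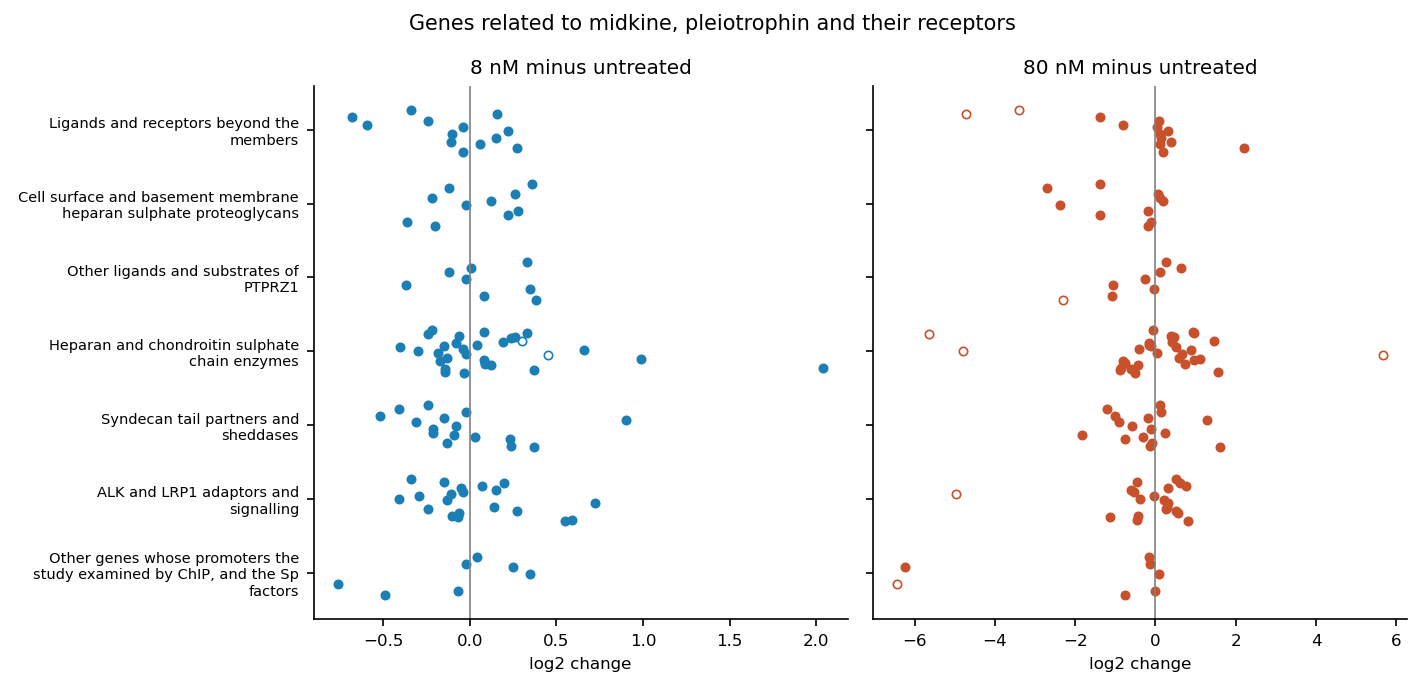
Log2 change against untreated of each measured gene of the 6 related lists and of the genes examined by chromatin immunoprecipitation with the Sp factors, at 8 nM (left) and at 80 nM (right, with a wider axis), with 1 point per gene; open points had no array well above background in a group of the comparison. At 8 nM SULF2 at 2.04 lies farthest from 0, and at 80 nM the open points reach -6.43 and 5.66.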

How the data were processed

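Total RNA of A2780 cells was profiled on 9 single-color arrays, 3 per group, and groups and replicate numbers were taken from the labels. The authors scanned the arrays and used Agilent Feature Extraction 10.7.3.1, per the file headers. The deposited intensity of each spot is corrected for background and not scaled between arrays, and the deposited flags mark spots that are outliers or well above background. The labels and the paper name different labeling kits. A deposited table of log2 values, which tracks the median spot signal (correlations of 0.99861 to 0.99983) with nearly equal medians on all arrays (6.45 to 6.53), served as an alternative only.

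Outlier and control spots were left out, spots of a probe were averaged, and log2 intensities were set relative to the 75th percentile of the array. The filter kept 26434 of 42405 probes, those well above background on every array of at least 1 group, and the brightest such probe stood for a gene (21814 genes). No probe was saturated. RefSeq genes of GRCh38.p14 gave names to 25715 of the 27245 probes that carry a RefSeq accession, and RefSeq promoter windows of the same assembly were searched. No coordinates of the probes were used. Groups were compared in R 4.3.3 with limma 3.58.1 over all 9 arrays, with Benjamini-Hochberg adjustment over all genes tested, and the procedure was tested on simulated data.

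The genes of the family and the related lists were chosen with earlier results of these data known. From each list, the genes named are the 2 that rose and the 2 that fell most at 80 nM after adjustment and were well above background on both sides by the probe used, at most 3 so called at 8 nM, and the genes studied by chromatin immunoprecipitation with SP1 and SP3. The alternatives were normexp correction (offset 50) of the median signal (the mean signal had been planned), quantile normalization, scaling to the array median or to 10 spike-in probes, the authors' log2 values, other filters and probe rules, adjusted p-values, other fits, and each array left out in turn.

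Samples with the same replicate number were compared by the correlation of their deviations from the group means. It was 0.1128, 0.1004 and 0.1584 between untreated and 8 nM. Unequal replicate numbers were not set beside these values and no label states a pairing, so they do not establish that the cultures were paired. The main fit has no replicate block, and fits with the block served as alternatives. The correlation was between -0.1166 and 0.01931 in comparisons with 80 nM. A blocked fit limited to the untreated and 8 nM arrays was added after seeing the data.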

Additional observations from a re-analysis of the deposited data

How the results depend on the processing

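The count of the 6 measured genes called at 8 nM was 2. It was 1 with normexp correction (SDC4 just under 1.5-fold) and 1 with the mean of a gene's probes (LRP1 under 1.5-fold). It was 1 to 2 when single arrays were left out, with 1 only without untreated replicate 1. At 80 nM, where the number past the limits is a description, it was 5, and it was 3 with normexp correction, 3 with the authors' log2 values, 3 with the mean of a gene's probes and 3 to 5 with single arrays left out, with 3 without untreated replicate 1, without untreated replicate 2 and without 80 nM replicate 3. Over all genes, 1546 were called at 8 nM, 743 with normexp correction, 905 with the authors' values and 1398 to 2108 with single arrays left out. At 80 nM, 7651 were called, 4736 with normexp correction and 7337 to 7749 with single arrays left out. Scaling to the spike-in probes turned the split of up- against down-regulated genes from 927 and 619 to 1219 and 317 at 8 nM, and from 4096 and 3555 to 2226 and 5710 at 80 nM. Without 8 nM replicate 1, the split at 8 nM was 991 and 1117. Of the 105 genes of all lists, with those studied by chromatin immunoprecipitation and the Sp factors, 7 were called at 8 nM, 11 without the filter on dim probes, 14 with each probe counted separately and 6 to 8 with single arrays left out, against 48 at 80 nM and 44 to 48 with single arrays left out.

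Changes near 0 at 8 nM turned sign. MDK changed by -0.07 without 8 nM replicate 1, and by -0.07 to 0.19 over all arrays left out in turn. SDC1 changed by 0.03 with quantile normalization, 0.02 with spike-in scaling, 0.03 with the authors' values and 0.03 without 8 nM replicate 3, with -0.19 to 0.03 over the arrays left out. SDC3 changed by -0.11 with the mean of its probes, -0.01 without untreated replicate 2 and -0.03 without 8 nM replicate 1, with -0.03 to 0.31 over the arrays left out. With the replicate block, 2 of the 6 genes were called at 8 nM, 5 at 80 nM, 1539 of all genes at 8 nM and 7620 at 80 nM. When the blocked fit was limited to untreated and 8 nM cultures, these were 2 and 1635 at 8 nM, with an adjusted p of 0.03 for LRP1 and 0.042 for SDC4. The block changed no call of the 6 genes. Of the 105 genes, 8 were called at 8 nM in both fits with the block. PTN, SDC3 and LRP1 lie near background or are read differently by their probes, and the cause of these shifts was not tested.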

Other observations

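Some markers of cell state changed at 80 nM beside midkine. There 1 of 5 measured epithelial and 1 of 2 measured mesenchymal markers were called, beside 35.1% of all genes. CDH2, the neural cadherin, fell by 2.33 on the log2 scale at 80 nM (limma adjusted p = 5.2e-06) from 0.19 ± 0.17 (SD, n = 3), and VIM changed by 0.40 (adjusted p = 0.003), short of 1.5-fold. EPCAM, an epithelial adhesion molecule, rose by 0.90 at 8 nM (adjusted p = 0.029) and fell by 0.93 at 80 nM (adjusted p = 0.0066). The keratins KRT7, KRT8 and KRT18 changed by 0.30 or less in size at both concentrations. KRT19 changed by 0.90 at 8 nM, with all 8 nM arrays above the untreated ones (adjusted p = 0.2), and by 0.17 at 80 nM (adjusted p = 0.75). Marker levels were also summed on a linear scale relative to the 75th percentile. For the 5 measured epithelial markers the sum was 7.86 to 8.35 on the untreated arrays and 7.99 to 8.85 at 80 nM. At 8 nM it was 7.19 to 8.55. For VIM and CDH2 together the sum was 180 to 209 on the untreated arrays and 243 to 255 at 80 nM. At 8 nM that sum was 164 to 183.

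Of 3 fibroblast markers, DCN fell by 1.39 at 80 nM (limma adjusted p = 0.0011), PDGFRB changed by 0.00 and LUM was well above background on 2 untreated arrays and none at 80 nM. The summed level of DCN and PDGFRB was 0.278 to 0.429 on the untreated arrays, 0.336 to 0.452 at 8 nM and 0.163 to 0.192 at 80 nM, and its part in the fall of MDK was not tested. Of the other markers, the endothelial PECAM1 and VWF had no array well above background, and PTPRC, CD14 and CDH5, which passed the filter, had mean levels between -4.90 and -2.96.

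Among the proteoglycans, GPC2 fell by 1.39 at 80 nM (adjusted p = 7.5e-06) and COL18A1, which encodes collagen XVIII, fell by 1.38 (adjusted p = 3.5e-05). Both were named after their values were seen.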
